A study of Sus scrofa with 3 samples.

Results

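The genes of proteasome subunits were compared between 3 pig cell populations. These were mesenchymal stem cells of the bone marrow (BM-MSC), cells named attached cells of the marrow (BMAC) and mononuclear cells of peripheral blood (PBMC). Members were all symbols made of PSM, a letter from A to G and a number, which gave 48 of the 26466 gene symbols counted. Each population was 1 library of 3' end tags (Lexogen QuantSeq, made from total RNA), with 17069344 counts in BM-MSC, 15122997 in BMAC and 15445903 in PBMC. The labels give no breed, age, sex, treatment, passage or culture condition and do not say which animals the libraries came from. BM-MSC and BMAC were both marrow populations and were set against the blood population.

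The proteasome is the barrel-shaped protease that degrades proteins marked with ubiquitin. Its core particle stacks outer rings of alpha subunits, encoded by PSMA genes, around inner rings of beta subunits, encoded by PSMB genes. PSMB5, PSMB6 and PSMB7 encode the catalytic beta subunits of most cells. White blood cells, and other cells exposed to interferon gamma, put PSMB8, PSMB9 and PSMB10 in their places, which makes the immunoproteasome and favours peptides that MHC class I molecules can present. Caps of ATPases (PSMC) and further subunits (PSMD) recognise and unfold the substrates, and PSME proteins are alternative caps.

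The labelled populations were first checked against marker genes. The 7 stromal markers, among them the collagen genes COL1A1 and COL1A2, summed to 13070 CPM (counts per 1000000) in BM-MSC and 11467 CPM in BMAC, against 3.63 CPM in PBMC. The 8 leukocyte markers summed to 10.6 CPM in BM-MSC and 12.2 in BMAC, against 5261 in PBMC. PTPRC, the leukocyte antigen CD45, stood at 1.11 CPM in BM-MSC and 1.85 in BMAC, against 2884 in PBMC. MS4A1 and CD74, markers of B cells and antigen-presenting cells, had 0 counts in BMAC. Monocyte and macrophage markers summed to 5.10 CPM in BM-MSC and 18.2 in BMAC, against 157 in PBMC. CD14 alone gave 17.3 CPM of the BMAC sum and was higher there than in PBMC, at 12.9 CPM. LYZ, CSF1R and CD68 were lower in BMAC than in PBMC. Dendritic markers summed to 1.58 CPM in BM-MSC and 1.92 in BMAC, against 39.4 in PBMC, and endothelial markers to 15.8 and 28.0 CPM, against 146 in PBMC, nearly all PECAM1. Erythroid markers summed to at most 5.83 CPM in any library. The part of these cell types in the values below was not tested.

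With 1 library per population no difference has a replicate check and no test between populations was made. Each fold below is a ratio of CPM with a 95% exact interval in parentheses, which covers counting error only. A gene was counted as higher or lower by the 4-fold or the 2-fold rule when log2((CPM + 1)/(CPM + 1)) was at least 2 or at least 1 in size. The higher library had to hold at least 10 CPM and 10 counts, and 42 of 48 members met this floor in each comparison with PBMC. In bulk libraries fewer cells of a type and less RNA per cell cannot be told apart. Both comparisons with PBMC used the same PBMC library, so their directions are not independent of each other.

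All 3 immune catalytic genes were lower in both marrow libraries than in blood, but PSMB10 fell short of the 2-fold rule in BM-MSC. PSMB8, which encodes the immune chymotrypsin-like subunit, stood at 9.61 CPM in BM-MSC and 6.48 in BMAC, against 82.6 in PBMC. It was 8.60-fold (7.30 to 10.2) lower in BM-MSC and 12.7-fold (10.4 to 15.8) lower in BMAC than in PBMC. PSMB9, the immune subunit that takes the place of PSMB6, stood at 18.8 CPM in BM-MSC and 7.41 in BMAC, against 114 in PBMC. It was 6.08-fold (5.40 to 6.87) lower in BM-MSC and 15.4-fold (12.7 to 18.9) lower in BMAC. PSMB8 and PSMB9 passed the 4-fold rule in both comparisons, as did 15.7% of all features in BM-MSC and 12.8% in BMAC. PSMB10, the immune counterpart of PSMB7, differed less. It stood at 22.8 CPM in BM-MSC and 12.3 in BMAC, against 40.1 in PBMC. That was 1.76-fold (1.55 to 1.999) lower in BM-MSC, short of the 2-fold rule, and 3.26-fold (2.77 to 3.87) lower in BMAC, past it, a call that was lost with a floor of 50 CPM.

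Their constitutive counterparts did not move as a block. PSMB5, the constitutive chymotrypsin-like subunit, stood at 64.9 CPM in BM-MSC and 53.6 in BMAC, against 18.6 in PBMC. It was 3.49-fold (3.07 to 3.99) higher in BM-MSC and 2.89-fold (2.52 to 3.31) higher in BMAC, past the 2-fold rule in both. PSMB6, the caspase-like subunit, stood at 65.6 CPM in BM-MSC and 41.8 in BMAC, against 26.2 in PBMC. The 2.51-fold (2.23 to 2.82) difference of BM-MSC passed the 2-fold rule and the 1.60-fold (1.41 to 1.81) difference of BMAC did not. PSMB7, the trypsin-like subunit, stood at 93.4 CPM in BM-MSC and 77.1 in BMAC, against 100.03 in PBMC, within 2-fold in both comparisons. The small difference between BM-MSC and PBMC, a log2 ratio of -0.10, turned positive under TMM or median-of-ratios factors and without ribosomal RNA rows.

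The immune share of the catalytic counts does not depend on how libraries are scaled. PSMB8, PSMB9 and PSMB10 together held 875 of 4696 catalytic counts in BM-MSC, or 18.6% (95% exact binomial interval 17.5 to 19.8). In BMAC they held 396 of 3005 counts, or 13.2% (11.99 to 14.4). In PBMC they held 3662 of 5898 counts, or 62.1% (60.8 to 63.3). The 3 intervals did not overlap, with BMAC lowest and PBMC highest. The ratio of immune to constitutive counts was 7.15-fold (6.53 to 7.84) lower in BM-MSC and 10.8-fold (9.58 to 12.2) lower in BMAC than in PBMC. QuantSeq yields about 1 tag per transcript, so counts were not scaled by transcript length. A share across genes still depends on how much of each transcript's 3' end the annotation covers.

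The pairs differed in how far they shifted. Of PSMB8 and PSMB5 counts, PSMB8 held 12.9% (11.1 to 14.9) in BM-MSC and 10.8% (8.84 to 13.0) in BMAC, against 81.6% (79.6 to 83.5) in PBMC. Of PSMB9 and PSMB6 counts, PSMB9 held 22.3% (20.2 to 24.5) in BM-MSC and 15.1% (12.6 to 17.8) in BMAC, against 81.4% (79.7 to 83.0) in PBMC. Both pairs thus changed sides, with the immune gene holding the larger count in PBMC and the constitutive gene in the marrow libraries. The pair of PSMB10 and PSMB7 kept its side: PSMB10 held 19.7% (17.9 to 21.5) in BM-MSC and 13.8% (11.96 to 15.7) in BMAC, against 28.6% (26.7 to 30.6) in PBMC. As ratios of ratios against PBMC, PSMB8 to PSMB5 was 30.04-fold (24.3 to 37.2) lower in BM-MSC, PSMB9 to PSMB6 15.2-fold (12.9 to 18.0) and PSMB10 to PSMB7 1.64-fold (1.42 to 1.90). In BMAC the same 3 ratios were 36.8-fold (28.6 to 47.5), 24.7-fold (19.5 to 31.2) and 2.52-fold (2.09 to 3.03) lower than in PBMC. The intervals of the PSMB10 pair lay apart from those of the other 2 pairs in both comparisons.

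**Figure D1:**
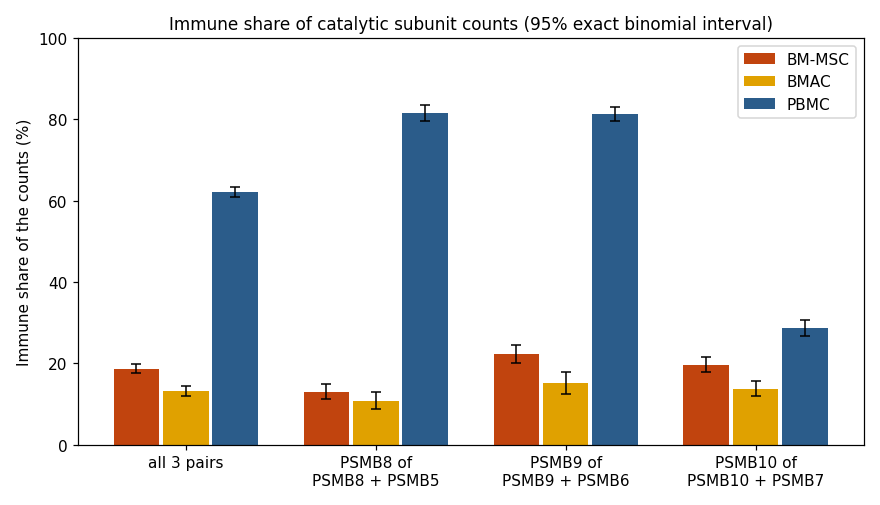
Immune share of catalytic subunit counts in percent, for the summed subunits and for each immune and constitutive pair, with bars for BM-MSC, BMAC and PBMC (1 library each) and 95% exact binomial intervals for counting error. PBMC reach 81.6% and 81.4% for PSMB8 and PSMB9 but 28.6% for PSMB10, while BM-MSC and BMAC stay between 10.8% and 22.3% in all pairs.

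Set against the alpha ring, whose genes are common to both kinds of proteasome, the shift lay on the immune side and in part on the constitutive side. The ratio of PSMB8 to summed PSMA1 to PSMA7 counts was 10.05-fold (8.505 to 11.9) lower in BM-MSC and 14.4-fold (11.7 to 17.9) lower in BMAC than in PBMC. For PSMB9 the same ratio was 7.10-fold (6.28 to 8.06) and 17.5-fold (14.4 to 21.4) lower, and for PSMB10 2.05-fold (1.80 to 2.35) and 3.69-fold (3.12 to 4.39) lower. PSMB5 to alpha ring was 2.99-fold (2.61 to 3.43) higher in BM-MSC and 2.55-fold (2.22 to 2.94) higher in BMAC. PSMB6 to alpha ring was 2.15-fold (1.90 to 2.42) and 1.41-fold (1.24 to 1.61) higher. PSMB7 to alpha ring went the other way, 1.25-fold (1.16 to 1.35) lower in BM-MSC and 1.47-fold (1.35 to 1.60) lower in BMAC. Over the 3 constitutive genes together, the ratio was 1.32-fold (1.24 to 1.41) higher in BM-MSC, and 1.05-fold (0.986 to 1.12) that of PBMC in BMAC, an interval that includes no difference. PSMA3 and PSMA7, which other annotated rows overlap, held 2229 and 2647 of the 9008 alpha ring counts in BM-MSC. They held 1546 and 2746 of 7729 in BMAC, and 1252 and 2374 of 6976 in PBMC. Their values are uncertain, and the ratios were not computed without them.

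BM-MSC and BMAC were also compared with each other. PSMB9 was 2.54-fold (2.04 to 3.18) higher in BM-MSC and was the 1 member of 41 above the floor to pass the 2-fold rule, against 8.2% of all 10303 features higher in BM-MSC. No member was lower in BM-MSC by that rule, against 11.1% of all features, and none passed the 4-fold rule in either direction, against 2.9% higher and 3.21% lower. PSMB10 was 1.86-fold (1.56 to 2.22) and PSMB8 1.48-fold (1.15 to 1.92) higher in BM-MSC, the second with under 10 CPM in both libraries. The summed immune to constitutive ratio was 1.51-fold (1.32 to 1.72) higher in BM-MSC than in BMAC. By pair the ratio was 1.62-fold (1.27 to 2.07) higher for PSMB9 to PSMB6 and 1.53-fold (1.26 to 1.87) higher for PSMB10 to PSMB7. For PSMB8 to PSMB5 it was 1.22-fold (0.932 to 1.62), an interval that includes no difference. The PSMB9 call was absent with a pseudocount of 5 CPM and with a floor of 50 CPM.

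Over the whole family, most members differed little. The 48 genes summed to 2894 CPM in BM-MSC and 2706 in BMAC, against 2534 in PBMC. Of the 42 members above the floor, 2 were lower in BM-MSC than in PBMC by the 4-fold rule, against 15.7% of all 11428 features, and none was higher, against 14.3%. By the 2-fold rule 10 were higher in BM-MSC, against 26.4% of all features, and 3 were lower, against 31.8%. In BMAC the 4-fold rule gave 2 lower members and none higher, against 12.8% and 14% of all 11371 features. The 2-fold rule gave 5 higher members and 3 lower ones in BMAC, against 24.8% and 26.4%. Of the members, 69.0% lay within 2-fold between BM-MSC and PBMC, against 41.9% of all features. Between BMAC and PBMC 81.0% did, against 48.8%, and between BM-MSC and BMAC 97.6%, against 80.7%. The median log2 ratio of members was 0.22 in BM-MSC over PBMC and 0.19 in BMAC over PBMC, beside -0.16 and -0.12 for all features.

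With a pseudocount of 5 CPM the 2-fold calls of PSMA5, PSMC2, PSMC4 and PSMD8 in BM-MSC and of PSMC2 in BMAC were lost. With a floor of 50 CPM those of PSMA5, PSMC2 and PSME3 in BM-MSC and of PSMC2 in BMAC were lost, and without mitochondrial rows that of PSMC2 in BM-MSC. The values also depend on scaling. TMM factors moved the median of all features by 0.39 on the log2 scale in BM-MSC over PBMC and by 0.33 in BMAC over PBMC. With them the member medians were 0.55 and 0.47, beside 0.23 and 0.21 for all features, so that members lay above the median feature by 0.32 and 0.27, close to the 0.38 and 0.31 found with library totals. Of all features called by the 2-fold rule in BM-MSC over PBMC, 45.4% were higher, and 56.9% under TMM or 58.0% under median-of-ratios factors. In BMAC over PBMC 48.4% were higher, and 59.5% and 59.8% with those factors. Of the 4-fold calls in BM-MSC over PBMC, 47.6% were higher, and 58.5% and 59.5% with those factors. With TMM factors PSMA2, PSMA6, PSMB2, PSMB7 and PSMD14 took the other sign in BM-MSC over PBMC and PSMA2, PSMC5 and PSMD9 in BMAC over PBMC, as did the median of the core chaperones in both. These members had log2 ratios of at most 0.33 in size. Another row of the RefSeq annotation overlaps 8 members and holds at least 25% of their count in some library, and since strand use is not stated the values of these members are uncertain. They are PSMA3 (with LOC102165044), PSMA7 (LSM14B), PSMC1 (NRDE2), PSMC5 (FTSJ3), PSMD6 (ATXN7), PSMD10 (ATG4A), PSME1 (EMC9) and PSMG2 (CEP76).

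**Figure D2:**
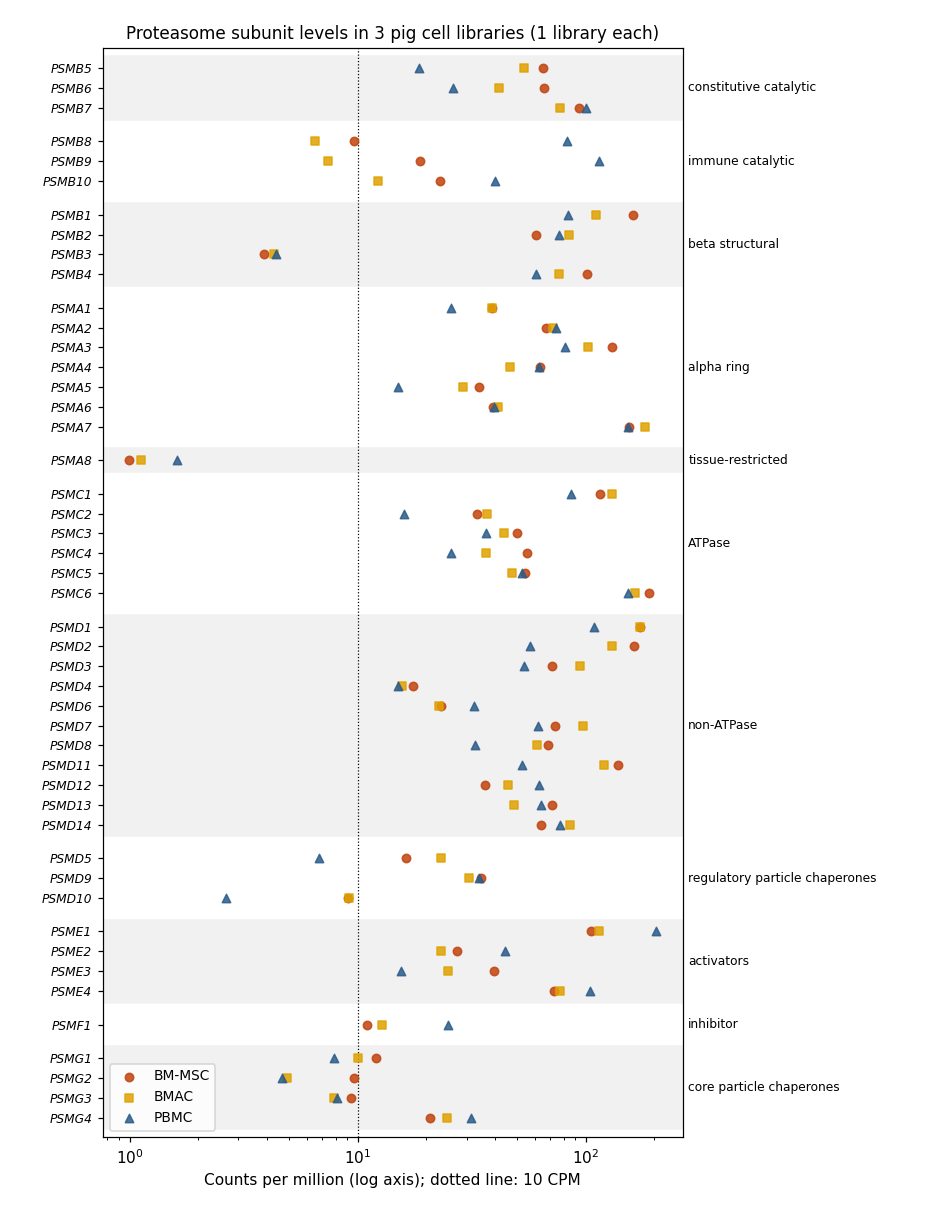
Level of each proteasome gene in CPM on a log axis, grouped by role, with 1 point per library for BM-MSC, BMAC and PBMC; PSMB11, with 0 counts in all 3, is left out. The immune catalytic genes lie left in BM-MSC and BMAC and right in PBMC, while points of most other genes lie close together.

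The alpha subunits, which form the outer rings and the gate of the core, were close to level. Their 7 genes summed to 528 CPM in BM-MSC and 511 in BMAC, against 452 in PBMC. Log2 ratios over PBMC ran from -0.15 to 1.13 in BM-MSC (median 0.02) and from -0.42 to 0.90 in BMAC (median 0.24). PSMA5 stood at 34.1 CPM in BM-MSC and 29.0 in BMAC, against 15.1 in PBMC. Its 2.26-fold (1.94 to 2.64) difference in BM-MSC passed the 2-fold rule, and the 1.92-fold (1.64 to 2.27) difference in BMAC did not. At the other end, PSMA2 stood at 66.9 CPM in BM-MSC and 71.7 in BMAC, against 74.1 in PBMC, and took the other sign in both with TMM factors. PSMA4 had the lowest ratio in BMAC, at 63.1 CPM in BM-MSC and 46.4 in BMAC, against 62.4 in PBMC, 1.35-fold (1.22 to 1.49) lower in BMAC. PSMA7 was the most abundant alpha gene, at 155 CPM in BM-MSC and 181.6 in BMAC, against 154 in PBMC. PSMA1 was 1.501-fold (1.32 to 1.70) and 1.51-fold (1.32 to 1.72) higher. The median of the alpha genes in BM-MSC over PBMC turned negative without mitochondrial rows in the total.

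The beta subunits without a catalytic site of their own, PSMB1 to PSMB4, gave 3 genes above the floor. Their log2 ratios over PBMC ran from -0.33 to 0.94 in BM-MSC and from 0.14 to 0.40 in BMAC. PSMB1 stood at 162 CPM in BM-MSC and 111 in BMAC, against 83.8 in PBMC, 1.93-fold (1.81 to 2.06) and 1.33-fold (1.23 to 1.43) higher. PSMB4 followed the same order, at 101 CPM in BM-MSC and 76.6 in BMAC, against 60.7 in PBMC. PSMB2 did not, at 60.8 CPM in BM-MSC and 84.2 in BMAC, against 76.4 in PBMC, and its sign in BM-MSC turned with TMM factors. PSMB3 had 66 counts in BM-MSC, 65 in BMAC and 68 in PBMC, or 3.87, 4.30 and 4.40 CPM. PSMB3 encodes a core subunit that every proteasome holds, and it stayed below the floor in all 3 libraries. Whether its annotated row covers the transcript's 3' end was not checked, so this level is uncertain. The tissue-restricted genes were at the bottom of the scale. PSMA8, a testis alpha subunit, had 17, 17 and 25 counts, and PSMB11, a thymus catalytic subunit, had 0 counts in each library. A count of 0 allows up to 3 counts, which are 0.176 CPM in BM-MSC, 0.198 in BMAC and 0.194 in PBMC.

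Of the 17 ATPase and non-ATPase genes of the regulatory cap, 5 were higher in BM-MSC by the 2-fold rule, against 26.4% of all features, and 3 in BMAC, against 24.8%. None was lower, against 31.8% and 26.4%. The 6 ATPase genes, whose products form the ring that unfolds substrates, summed to 498 CPM in BM-MSC and 461 in BMAC, against 370 in PBMC. In BM-MSC 6 of 6 had a log2 ratio above 0 over PBMC (median 0.43) and in BMAC 5 of 6 did (median 0.37). PSMC2 stood at 33.2 CPM in BM-MSC and 36.9 in BMAC, against 16.0 in PBMC, 2.08-fold (1.79 to 2.42) and 2.31-fold (1.98 to 2.69) higher. PSMC4 was 2.15-fold (1.91 to 2.43) higher in BM-MSC, past the 2-fold rule, and 1.42-fold (1.24 to 1.62) higher in BMAC. PSMC5 was the ATPase gene with the smallest ratio in BM-MSC, at 54.1 CPM in BM-MSC and 47.7 in BMAC, against 52.6 in PBMC. PSMC6 was the most abundant, at 190.2 CPM in BM-MSC and 165 in BMAC, against 153 in PBMC, while PSMC1 was 1.33-fold (1.24 to 1.43) higher in BM-MSC and PSMC3 1.38-fold (1.24 to 1.53).

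The 11 non-ATPase cap genes summed to 898 CPM in BM-MSC and 895 in BMAC, against 616 in PBMC. PSMD2, a scaffold subunit of the base, stood at 162 CPM in BM-MSC and 131 in BMAC, against 56.7 in PBMC. That was 2.86-fold (2.65 to 3.09) and 2.31-fold (2.13 to 2.50) higher. PSMD11, a lid subunit, stood at 138 CPM in BM-MSC and 121 in BMAC, against 52.3 in PBMC, 2.63-fold (2.43 to 2.86) and 2.31-fold (2.12 to 2.51) higher. PSMD8, another lid subunit, was 2.08-fold (1.87 to 2.31) higher in BM-MSC and 1.87-fold (1.68 to 2.09) higher in BMAC. PSMD12, also of the lid, went the other way, at 36.3 CPM in BM-MSC and 45.6 in BMAC, against 62.5 in PBMC, 1.72-fold (1.56 to 1.91) and 1.37-fold (1.24 to 1.52) lower. PSMD14, the subunit that cuts ubiquitin off the substrate, stood at 63.8 CPM in BM-MSC and 85.6 in BMAC, against 77.1 in PBMC. PSMD1, the other scaffold subunit of the base, was 1.60-fold higher in both, with intervals of 1.51 to 1.70 in BM-MSC and 1.504 to 1.70 in BMAC. PSMD3 was 1.32-fold (1.21 to 1.45) higher in BM-MSC and 1.75-fold (1.60 to 1.91) higher in BMAC, and PSMD7 1.18-fold (1.09 to 1.29) and 1.58-fold (1.45 to 1.71). PSMD6 had the lowest log2 ratio of the class in BMAC over PBMC, at 23.2 CPM in BM-MSC and 22.7 in BMAC, against 32.2 in PBMC. PSMD13 differed between the marrow libraries, at 71.3 CPM in BM-MSC and 48.5 in BMAC, against 63.3 in PBMC. The ubiquitin receptor PSMD4 was counted at 17.5 CPM in BM-MSC and 15.7 in BMAC, against 15.0 in PBMC. Log2 ratios of the class ran from -0.77 to 1.5004 in BM-MSC (median 0.24) and from -0.49 to 1.19 in BMAC (median 0.65). Subunits of the same lid thus did not share a direction.

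Within the family the balance of cap and core counts can be read without scaling. Base and lid genes held 23825 counts beside 19311 of the core genes in BM-MSC. They held 20508 beside 14928 in BMAC, and 15230 beside 16378 in PBMC. The ratio of cap to core counts was 1.33-fold (1.29 to 1.37) higher in BM-MSC and 1.48-fold (1.43 to 1.52) higher in BMAC than in PBMC. It was 1.11-fold (1.08 to 1.15) lower in BM-MSC than in BMAC. The core counts include the immune genes, with 875 counts in BM-MSC, 396 in BMAC and 3662 in PBMC. These took 1.77% of all member counts in BM-MSC and 0.968% in BMAC, against 9.36% in PBMC. The cap to core ratio is thus mixed with the immune subunit difference and cannot be read as a difference of the cap alone. It was not computed without the immune genes, so how much of it they make up is not given here.

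**Figure D3:**
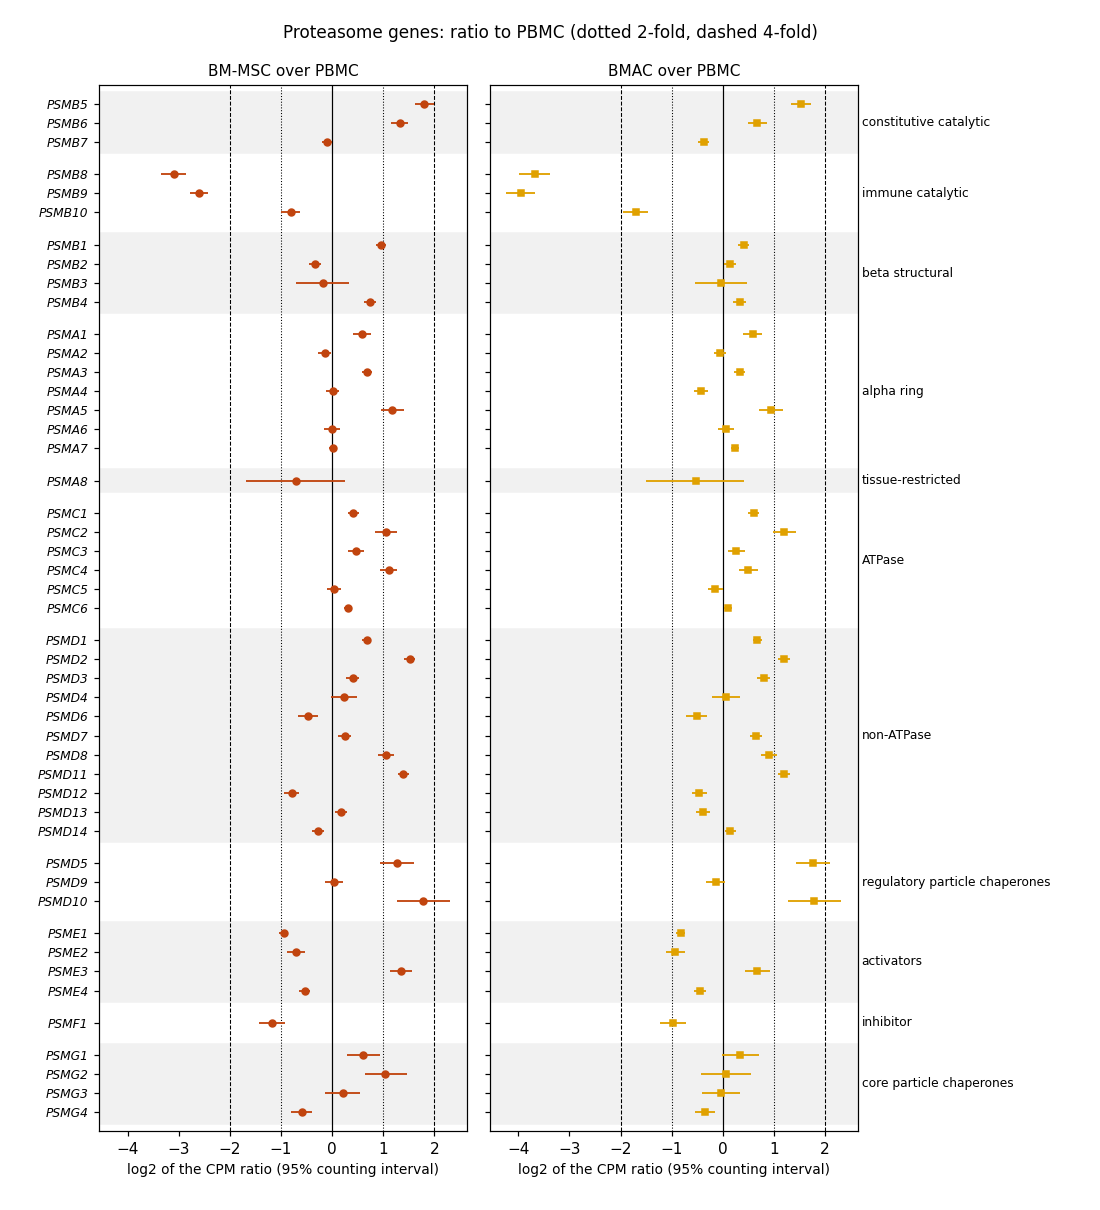
Log2 ratio of CPM, without pseudocount, of BM-MSC over PBMC (left) and BMAC over PBMC (right) for each proteasome gene with a count, grouped by role, with 95% exact intervals for counting error; dotted lines mark 2-fold and dashed lines 4-fold. PSMB8 and PSMB9 lie beyond the 4-fold line on the left in both panels, and PSMB5, PSMC2, PSMD2, PSMD5, PSMD11 and the low-count PSMD10 beyond the 2-fold line on the right in both.

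The alternative caps divided as well. PSME1 and PSME2 encode the ring known as PA28 alpha and beta, which interferon gamma induces together with the immune subunits. PSME1 stood at 106 CPM in BM-MSC and 115 in BMAC, against 203 in PBMC, 1.93-fold (1.82 to 2.04) and 1.77-fold (1.67 to 1.88) lower. PSME2 stood at 27.1 CPM in BM-MSC and 23.2 in BMAC, against 44.2 in PBMC, 1.63-fold (1.45 to 1.84) and 1.91-fold (1.67 to 2.17) lower. Neither passed the 2-fold rule. PSME3, which encodes the nuclear cap PA28 gamma, stood at 39.5 CPM in BM-MSC and 24.8 in BMAC, against 15.5 in PBMC. It was 2.56-fold (2.20 to 2.97) higher in BM-MSC, past the 2-fold rule, and 1.60-fold (1.36 to 1.89) higher in BMAC. PSME4, which encodes the cap PA200, stood at 72.2 CPM in BM-MSC and 76.8 in BMAC, against 104 in PBMC, 1.45-fold (1.34 to 1.56) and 1.36-fold (1.26 to 1.47) lower.

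As counts within a library, PSME2 to PSME3 was 4.17-fold (3.43 to 5.06) lower in BM-MSC and 3.05-fold (2.47 to 3.78) lower in BMAC than in PBMC. PSME2 to PSME4 was 1.13-fold (0.978 to 1.30) lower in BM-MSC, an interval that includes no difference, and 1.40-fold (1.204 to 1.63) lower in BMAC. Between the marrow libraries PSME3 was 1.59-fold (1.40 to 1.81) higher in BM-MSC than in BMAC, the largest ratio among the 4 caps. PSMF1, which encodes the inhibitor PI31, stood at 11.01 CPM in BM-MSC and 12.8 in BMAC, against 24.99 in PBMC. Its 2.27-fold (1.90 to 2.72) lower level in BM-MSC passed the 2-fold rule and the 1.96-fold (1.64 to 2.34) lower level in BMAC did not. The BM-MSC call was lost with TMM factors, median-of-ratios factors, a total without ribosomal RNA rows, a pseudocount of 5 CPM and a floor of 50 CPM.

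Assembly chaperones, which guide the particles together and then leave, were mostly counted at low levels. PSMD5, a chaperone of the cap, stood at 16.3 CPM in BM-MSC and 23.1 in BMAC, against 6.80 in PBMC. It was 2.40-fold (1.91 to 3.04) higher in BM-MSC and 3.39-fold (2.72 to 4.26) higher in BMAC, past the 2-fold rule in both. The BM-MSC call of PSMD5 was lost with a pseudocount of 5 CPM, and both calls with a floor of 50 CPM. PSMD10, the cap chaperone also called gankyrin, stood at 9.08 CPM in BM-MSC and 9.13 in BMAC, against 2.65 in PBMC, below the floor throughout and overlapping ATG4A. PSMD9, the remaining cap chaperone, stood at 34.9 CPM in BM-MSC and 30.7 in BMAC, against 33.9 in PBMC. Of the core chaperones, PSMG1 and PSMG4 reached the floor. PSMG1 was 1.53-fold (1.22 to 1.93) higher in BM-MSC and 1.27-fold (0.996 to 1.63) higher in BMAC than in PBMC. PSMG4 was 1.51-fold (1.32 to 1.74) and 1.27-fold (1.11 to 1.46) lower. PSMG2, which overlaps CEP76, stood at 9.61 CPM in BM-MSC and 4.89 in BMAC, against 4.66 in PBMC, and PSMG3 at 9.31 CPM in BM-MSC and 7.87 in BMAC, against 8.09 in PBMC.

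Members that neighbour each other in the RefSeq gene order were read side by side. TAP2, PSMB8, TAP1 and PSMB9 follow each other there, in the MHC region. TAP1 and TAP2 encode the transporter that carries proteasome products to MHC class I molecules. TAP1 stood at 33.9 CPM in BM-MSC and 21.5 in BMAC, against 116 in PBMC, 3.42-fold (3.11 to 3.76) and 5.40-fold (4.80 to 6.10) lower. TAP2, at the edge of this run, stood at 30.4 CPM in BM-MSC and 31.9 in BMAC, against 48.0 in PBMC, 1.58-fold (1.41 to 1.77) and 1.504-fold (1.34 to 1.69) lower. PSMB5 and PSMB11 are also neighbours, and PSMB11 had no count in any library. PSME2 and PSME1 lie on both sides of EMC9, next to the interferon factor gene IRF9.

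Of 8 class I peptide loading genes above the floor, 3 were lower and 3 higher in BM-MSC than in PBMC by the 2-fold rule, beside 31.8% and 26.4% of all features. In BMAC 2 were lower and 2 higher, beside 26.4% and 24.8%. B2M, the light chain of MHC class I, stood at 429 CPM in BM-MSC and 354 in BMAC, against 1053 in PBMC. The chaperone CALR stood at 1053 CPM in BM-MSC and 952 in BMAC, against 221 in PBMC, 4.76-fold (4.59 to 4.94) and 4.30-fold (4.14 to 4.47) higher. TAP1, TAP2, TAPBP and B2M had log2 ratios below 0 and ERAP1, CALR, CANX and PDIA3 above 0 in both comparisons. ERAP1 overlaps CAST, so its direction is uncertain. The list median was 0.13 in BM-MSC over PBMC and 0.25 in BMAC over PBMC.

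Most regulators of the immune subunits were lower in the marrow libraries. By the 2-fold rule 9 of the 10 genes that reached the floor were lower in BM-MSC, against 31.8% of all features, and 8 in BMAC, against 26.4%. None was higher, against 26.4% and 24.8% (median log2 ratio -2.06 and -1.67, beside -0.16 and -0.12 for all features). The list was chosen with earlier results of these data known, so these counts are a description and not a test. NLRC5, the transactivator of MHC class I genes, stood at 10.8 CPM in BM-MSC and 3.50 in BMAC, against 514 in PBMC. It was 47.4-fold (41.0 to 55.2) and 147-fold (112 to 196) lower. IRF8, a transcription factor of myeloid and B cells, stood at 0.410 CPM in BM-MSC and 5.62 in BMAC, against 67.4 in PBMC. The interferon gamma receptor gene IFNGR2 stood at 30.2 CPM in BM-MSC and 74.7 in BMAC, against 230 in PBMC. JAK2, the kinase at that receptor, stood at 53.4 CPM in BM-MSC and 95.3 in BMAC, against 317 in PBMC. IRF2, of the same factor family as IRF1, stood at 49.6 CPM in BM-MSC and 81.4 in BMAC, against 274 in PBMC. STAT2, which overlaps IL23A, was 2.52-fold (2.25 to 2.82) lower in BM-MSC and 4.40-fold (3.81 to 5.11) lower in BMAC. The leukocyte marker sums, 10.6 CPM in BM-MSC and 12.2 in BMAC, against 5261 in PBMC, moved with these genes, and their part in the values was not tested.

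The order of BM-MSC and BMAC was not shared by these regulators. NLRC5 was 3.09-fold (2.27 to 4.28) higher in BM-MSC than in BMAC and STAT2 1.75-fold (1.49 to 2.06) higher. IFNGR2 was 2.47-fold (2.22 to 2.75) and JAK2 1.79-fold (1.64 to 1.94) lower in BM-MSC than in BMAC. PSMB8, PSMB9 and PSMB10, which were 1.48-fold to 2.54-fold higher in BM-MSC, had the direction of NLRC5 and STAT2. Of the 9 regulators above the floor in that pair, 1 was higher and 1 lower by the 2-fold rule, near the 8.2% and 11.1% of all features.

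Among regulators of the proteasome genes as a whole, several were higher in the marrow libraries. NFE2L1, the transcription factor that raises proteasome genes when the proteasome is inhibited, stood at 320 CPM in BM-MSC and 236 in BMAC, against 25.9 in PBMC. It was 12.4-fold (11.2 to 13.7) and 9.11-fold (8.21 to 10.1) higher. Its small MAF partner genes MAFG and MAFF followed. MAFG was 6.83-fold (5.86 to 8.002) higher in BM-MSC and 5.79-fold (4.95 to 6.80) higher in BMAC. MAFF was 22.5-fold (14.4 to 37.2) higher in BM-MSC and 128-fold (82.4 to 209) higher in BMAC. MAFF stood at 29.2 CPM in BM-MSC and 165 in BMAC, against 1.29 in PBMC. MAFK, which overlaps TMEM184A, was 2.63-fold (2.18 to 3.19) higher in BM-MSC. NFE2L2, which overlaps HNRNPA3 and AGPS, was 2.86-fold (2.69 to 3.04) higher in BMAC. Of 7 genes in the list, 4 were higher in BM-MSC by the 2-fold rule, against 26.4% of all features, and 5 in BMAC, against 24.8%. None was lower, against 31.8% and 26.4% (median 1.31 and 1.51). This list too was chosen with earlier results known, so its counts are a description and not a test. NGLY1 had a log2 ratio of -0.76 in BMAC over PBMC and BACH1, a repressor that binds small MAF proteins, one of -0.23 in BM-MSC over PBMC. Between the marrow libraries NGLY1, whose product processes NFE2L1, was 2.45-fold (2.11 to 2.87) higher in BM-MSC, and MAFF was 5.66-fold (5.14 to 6.24) lower.

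Of 11 proteasome partners outside the PSM symbols, 3 were higher and 2 lower in BM-MSC by the 2-fold rule, beside 26.4% and 31.8% of all features. In BMAC 2 were higher and 2 lower, beside 24.8% and 26.4%. ADRM1, a ubiquitin receptor of the cap, stood at 18.6 CPM in BM-MSC and 14.9 in BMAC, against 4.53 in PBMC, 4.10-fold (3.15 to 5.39) and 3.30-fold (2.51 to 4.38) higher. UCHL5, the deubiquitinase that ADRM1 holds at the cap, was 3.69-fold (3.19 to 4.28) lower in BM-MSC and 2.67-fold (2.34 to 3.06) lower in BMAC. USP14, another deubiquitinase of the cap, which overlaps THOC1, was 3.12-fold (2.84 to 3.44) and 2.17-fold (1.96 to 2.40) higher. UCHL5 and USP14 thus lay on different sides of PBMC. POMP, the chaperone of core assembly, stood at 64.8 CPM in BM-MSC and 59.5 in BMAC, against 56.8 in PBMC. AKIRIN2, which brings proteasomes into the nucleus, was 2.49-fold (2.25 to 2.76) higher in BM-MSC than in BMAC.

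Ubiquitin genes differed in direction among themselves. Of 9 ubiquitin genes, 1 was higher and 2 lower in BM-MSC than in PBMC by the 2-fold rule, beside 26.4% and 31.8% of all features. In BMAC 1 was higher and none lower, beside 24.8% and 26.4%. UBA1, the main ubiquitin-activating enzyme, was 2.98-fold (2.73 to 3.27) higher in BM-MSC and 2.36-fold (2.14 to 2.59) higher in BMAC. UBA6, the other activating enzyme, was 2.66-fold (2.34 to 3.03) lower in BM-MSC and 1.83-fold (1.63 to 2.07) lower in BMAC. Shuttle factors carry ubiquitinated proteins to the cap, and 3 of 6 were higher in BM-MSC, beside 26.4% of all features, and 2 in BMAC, beside 24.8%. None was lower, beside 31.8% and 26.4%. ZFAND2A, a proteasome-associated gene induced by protein stress, stood at 17.6 CPM in BM-MSC and 38.6 in BMAC, against 4.34 in PBMC.

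**Figure D4:**
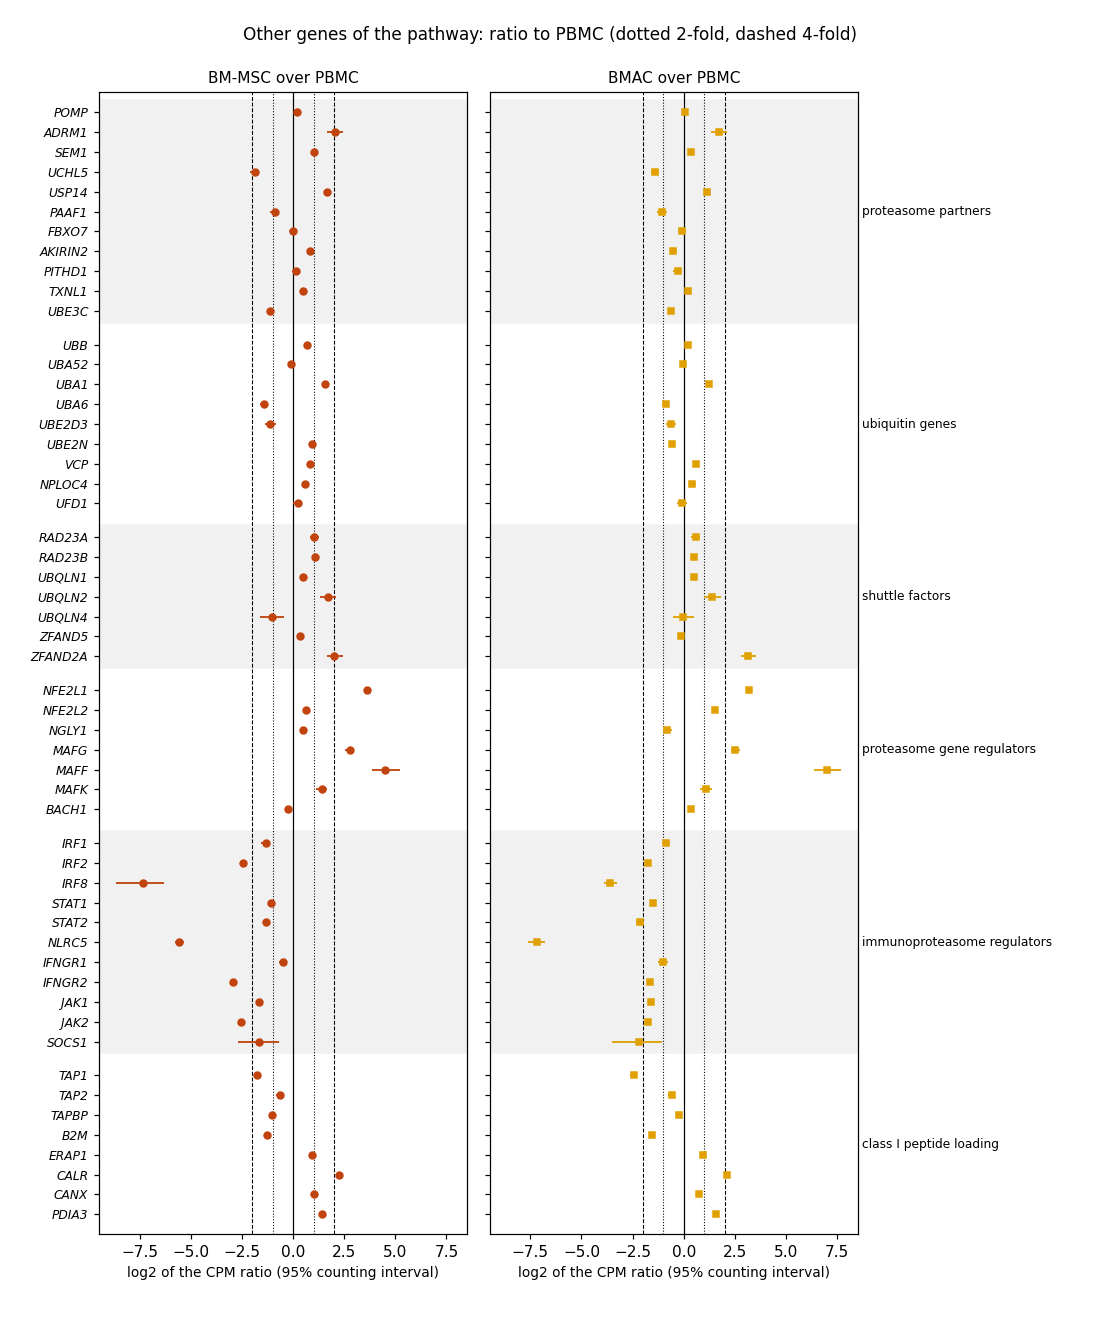
Log2 ratio of CPM, without pseudocount, of BM-MSC over PBMC (left) and BMAC over PBMC (right) for other genes of the pathway, grouped by list, with 95% exact intervals for counting error; dotted lines mark 2-fold and dashed lines 4-fold. All regulators of the immune subunits lie left of 0 in both panels, and NFE2L1, MAFG and MAFF lie beyond the 4-fold line on the right in both.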

How the data were processed

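The deposited values were raw counts per gene row, 1 library per population, as whole numbers with unequal totals show. RNA was prepared with a Lexogen QuantSeq kit, per the labels' protocols. Per the submitters' processing notes, the tools included Bowtie2 and bedtools, with no version. Strand setting, build and annotation were not given in the sources used here. In all, the files list 26965 rows under 26466 symbols, and rows of the same symbol were summed, which concerned no member. All 48 members were found in the RefSeq table of Sscrofa11.1, used only for neighbours and overlaps. Counts were divided by library totals (CPM), and ratios took a pseudocount of 1 CPM. Intervals are exact (Clopper-Pearson, or conditional for ratios of ratios, scipy 1.17.1). They cover counting error only and treat reads as independent. PCR copies were not identified, so the intervals may be too narrow even for counting error.

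Genes given in full were the catalytic subunits, PSME1 to PSME4, PSMF1, members past the 2-fold rule, the extremes of a class, and up to 4 genes with the largest ratio of each other list. Other members, POMP and TAP2 were added after their values were seen. Members and lists were chosen with earlier results of these data known, so their counts beside the shares of all features are descriptive. ECPAS and DDI2 had no row under those symbols and were not analysed here, and 1 gene of the ubiquitin list is not reported here and was left out of its counts. Alternatives were TMM (edgeR 4.0.16) and median-of-ratios factors, totals without ribosomal RNA or mitochondrial rows, pseudocounts of 0.5 and 5 CPM, floors of 1 and 50 CPM, leaving out overlapping members, and other weightings of the catalytic pairs. The size rules were also run on simulated counts that held counting error only. Without variation between libraries, that run cannot show how often the rules err in unreplicated data.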

Additional observations from a re-analysis of the deposited data

How the results depend on the processing

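No paired analysis was possible because each population has 1 library. The 4-fold calls of PSMB8 and PSMB9 against PBMC held in BM-MSC and in BMAC under every scaling, pseudocount and floor tried. PSMB5 was the 1 member higher by 4-fold in BM-MSC under TMM or median-of-ratios factors. Members higher by 2-fold in BM-MSC over PBMC, 10 in the report, numbered 15 with TMM factors, 16 with median-of-ratios factors, 5 with a pseudocount of 5 CPM and 6 with a floor of 50 CPM. In BMAC over PBMC the 5 were 8 under either kind of factor and 3 with the floor of 50 CPM. In BM-MSC over BMAC the 1 was 0 with the pseudocount of 5 CPM and with the floor of 50 CPM. Such moves follow from the settings. Scaling factors change all CPM of a library alike, a larger pseudocount makes ratios smaller in size, and a higher floor admits fewer genes.

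The immune share of catalytic counts was 20.8% in BM-MSC and 55.0% in PBMC without the PSMB8 and PSMB5 pair, 17.0% and 50.9% without the PSMB9 and PSMB6 pair, and 81.5% in PBMC without the PSMB10 and PSMB7 pair. With equal weight for each pair it was 63.9% in PBMC. The log2 ratio of immune to constitutive counts, -2.84 in BM-MSC over PBMC, was -3.18 with equal weights, -2.22, -2.34 and -4.34 without the pairs in the order above, and -2.43 with the alpha ring as denominator. In BMAC over PBMC, -3.43 became -3.72 with equal weights and -2.88, -2.85 and -4.92 without the pairs in that order. In BM-MSC over BMAC, 0.59 became 0.92 with the alpha ring as denominator. No member past a size rule and no immune to constitutive ratio took the other sign under the alternatives run. Members within 2-fold did, among them PSMB7 in BM-MSC over PBMC, at -0.10 in the report, 0.23 with TMM factors, 0.26 with median-of-ratios factors and 0.06 without ribosomal RNA rows. Those settings change all CPM of a library by the same factor. The cause of the other moves was not tested.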
